A study of Mus musculus with 27 samples.

Results

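The E10.5 mouse forelimb bud (FLB) was compared with 3 other tissues of the same stage, the branchial arch (BA), the cardiac tissue (Ca) and the tail bud (TB), each dissected from Slc:ICR embryos and sequenced as 3 mRNA libraries. These 12 of the 27 libraries of the series gave 13882 genes with at least 1 count per 1e6 reads (CPM) in 3 or more libraries. A gene was called limb-high when it was higher in the FLB than in the mean of the 3 tissues and than in each of them singly, every time at an adjusted p below 0.05, and limb-low for the reverse. By this rule 424 genes were limb-high and 484 limb-low. The methods name 3 embryos and no sorting step, so each library holds all cells of the piece, and fewer cells of a type and less RNA per cell cannot be told apart. Nothing further says how the embryos map to libraries, so the p-values measure the spread between these samples. Beside them stood 3 libraries of forelimb-type mesenchyme made from mouse ES cells (ES-FLB; strain EB5 Hand2::GFP +/-, Day 9 of culture, steered towards forelimb with retinoic acid and sorted for GFP from 96 pooled aggregates). For comparison there were 3 libraries of an earlier Slc:ICR forelimb bud (early FLB, labelled E10.0 and named E9.75 in the study's own key) and 2 libraries of the E10.5 Slc:ICR hindlimb bud (HLB). Another HLB library, with whole chromosomes listed at 0, was left out. ES-FLB differed from the FLB in strain, culture, sorting and the GFP allele at Hand2 together, and these cannot be told apart.

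The limb bud is a mound of lateral plate mesenchyme under a jacket of ectoderm, and its outgrowth rests on an exchange of signals between the apical ectodermal ridge, which secretes FGFs, and the mesenchyme beneath it. Position along the shoulder-to-finger axis is set with retinoic acid near the flank, its breakdown distally and the Hoxa and Hoxd genes. The LIM-homeodomain factor Lmx1b carries dorsal identity, and Lhx2 and Lhx9 act in the response of the mesenchyme to the ridge. Tbx5 is the T-box factor that starts the forelimb, and it also has an established role in the heart.

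Library size, read from the spacing of the lowest values, was 5543718 to 5908834 reads in the FLB, 7431852 to 8541886 in the 9 tissue libraries and 7212014 to 7723164 in ES-FLB. It was 21009793 to 22141194 reads in the early FLB and 5648164 to 5732820 in the HLB. In CPM, 3 reads, the limit that a count of 0 allows, came to at most 0.541 CPM in the FLB and 0.404 CPM in the tissues (counting error only). Correlations of log2 levels across genes, which are not independent replicates, were 0.988 to 0.995 within groups and, for the FLB, 0.966 to 0.970 with BA, 0.950 to 0.952 with TB, 0.841 to 0.863 with Ca and 0.921 to 0.926 with ES-FLB. Levels are given in scaled CPM (CPM after the libraries were scaled to a common reference), without division by gene length. Differences are on the log2(scaled CPM + 0.5) scale with their SE, and a gene is called higher or lower only at an adjusted p below 0.05 (limma, Benjamini-Hochberg over all genes tested).

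Of the 3 genes taken to mark the forelimb bud, Lhx9 and Lmx1b met the rule and Tbx5 did not. Tbx5 stood at 154, 164 and 171 in the FLB, at 93.4, 92.2 and 110 in Ca, and at 0.829 or less in every library of BA and TB. The FLB and Ca libraries did not overlap, but their difference of 0.73 ± 0.31 had an adjusted p of 0.056. In the E10.5 HLB Tbx5 was at 0.179 (n = 2). Lhx9 was at 144, 167 and 151 in the FLB and reached 9.30 in Ca, the tissue nearest to the FLB, with a difference of 4.38 ± 0.22. Lmx1b was at 23.6, 24.9 and 24.2 in the FLB and at 2.48 or less in the 9 tissue libraries, with a difference of 3.34 ± 0.24 from BA, the nearest.

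Lmx1b and the long noncoding RNA C130021I20Rik lie head to head, and the stretches upstream of their starts are shown because both genes were limb-high and share this DNA. In GRCm38 Lmx1b lies at chr2:33560965-33641208 on the minus strand and C130021I20Rik at chr2:33641193-33645663 on the plus strand, so the annotated genes overlap by 16 bases. The windows are the 250 bases before a transcript start in RefSeq (GRCm38.p6). For Lmx1b that start is 33641098, inside the annotated gene, so its window lies partly within the gene as annotated. They read from 5′ to 3′ on the gene's own strand, with the 94 bases that both windows hold in capitals, as reverse complements of each other. The window of Lmx1b is chr2:33641099-33641348 (65.2% G and C) and that of C130021I20Rik is chr2:33640943-33641192 (75.2% G and C).
Lmx1b: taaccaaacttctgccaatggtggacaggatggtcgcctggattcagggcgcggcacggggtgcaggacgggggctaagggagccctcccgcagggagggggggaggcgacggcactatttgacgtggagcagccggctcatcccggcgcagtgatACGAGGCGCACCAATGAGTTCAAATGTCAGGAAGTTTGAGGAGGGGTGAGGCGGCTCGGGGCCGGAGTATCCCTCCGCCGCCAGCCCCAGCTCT
C130021I20Rik: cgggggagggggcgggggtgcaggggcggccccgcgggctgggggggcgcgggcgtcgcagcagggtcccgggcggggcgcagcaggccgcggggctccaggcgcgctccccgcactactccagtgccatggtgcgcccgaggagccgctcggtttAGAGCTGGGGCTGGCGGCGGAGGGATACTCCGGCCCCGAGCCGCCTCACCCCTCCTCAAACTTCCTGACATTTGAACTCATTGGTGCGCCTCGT
C130021I20Rik was at 166, 169 and 166 in the FLB and at 9.71 or less in all 9 tissue libraries (4.26 ± 0.41 against BA, the nearest). Both genes were also high in the other limb buds: C130021I20Rik had 140 in the early FLB and 170 in the HLB, and Lmx1b had 43.5 and 29.5.

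Against the mean of the 3 tissues 3738 genes were higher in the FLB (26.9% of those tested) and 4029 lower (29%). The counts differed widely between tissues. Against Ca 5319 genes were higher and 5079 lower (38.3% and 36.6%), against TB 2977 and 3163 (21.4% and 22.8%), and against BA 1238 and 1381 (8.92% and 9.95%). The rule that asks for every tissue left 424 limb-high genes (3.05%) and 484 limb-low genes (3.49%), and a further demand of a 2-fold difference from each tissue left 90 and 98 (0.648% and 0.706%). Among the 3738 genes higher than the pooled tissues, 1500 (40.1%) differed from Ca alone, 1333 (35.7%) from Ca and TB but not BA, and 424 (11.3%) from all 3. Among the 4029 lower genes, 1647 (40.9%) differed from Ca alone, 1174 (29.1%) from Ca and TB but not BA, and 484 (12%) from all 3. For most genes that differed from the pool, then, Ca was among the tissues they differed from, and BA was not.

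**Figure D1:**
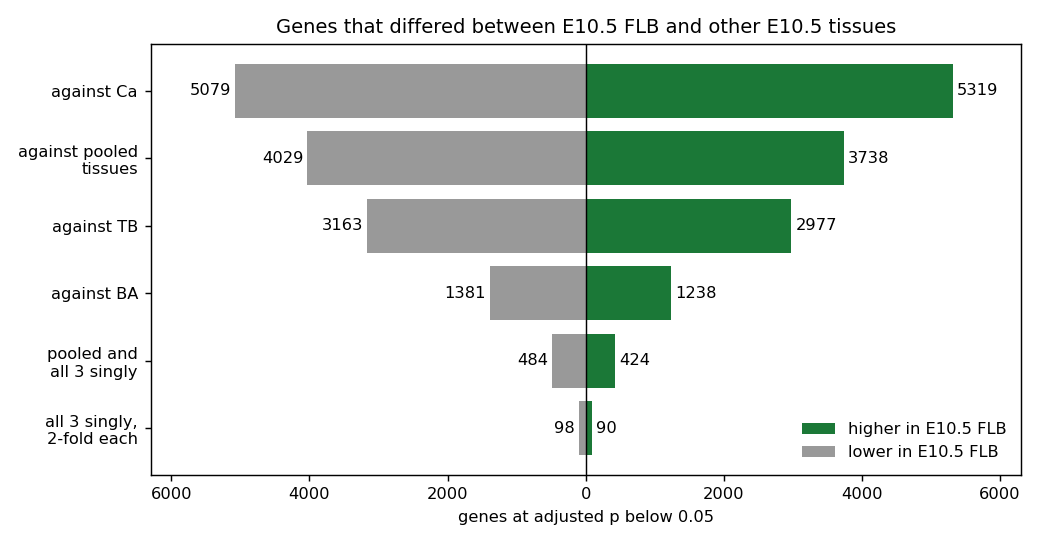
Number of genes higher and lower in the E10.5 FLB at an adjusted p below 0.05 against each tissue and the pooled tissues, and under the rule that asks for all 3 tissues, with and without the 2-fold demand; bars extend from 0 to the right (green, higher) and left (grey, lower). The counts go from 5319 and 5079 against Ca to 424 and 484 for all 3 tissues and 90 and 98 with the 2-fold demand.

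BA was the nearest tissue more often than TB or Ca, and over all genes it also gave the fewest calls (8.92% higher and 9.95% lower). It gave the weakest of the 3 differences for 248 of the 424 limb-high genes and 45 of the 90 with the 2-fold demand, TB for 124 and 30, and Ca for 52 and 15. The 3 FLB libraries lay above all 9 tissue libraries for 414 of the 424 and for 90 of 90, which the rule itself favours (761 of all genes tested, 5.48%, did so). They lay below them for 446 of the 484 limb-low genes and 96 of the 98 (701 of all genes, 5.05%). Many members were scarce, with 37 of the 90 at 16 CPM or more in the FLB and 27 under 5 CPM. At the edge of the 2-fold demand, Srsf12, Gpx2 and Kctd8 were just inside with weakest differences of 1.00, 1.01 and 1.01, and Fgf10, Meox2 and Calml4 just outside with 0.999, 0.995 and 0.989. Kctd8 missed the limb-high rule in 5 fits without a library (0.80 to 1.09). All 90 had a position in RefSeq, 83 as protein-coding genes and 6 as long noncoding RNAs, and 37 overlapped another annotated gene, 32 of them on the opposite strand.

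Transcription factors of the limb mesenchyme were among the genes with the largest differences. Tbx15 (chr3:99240348-99354260), a T-box factor of the limb and trunk skeleton, was at 282, 289 and 278 in the FLB and at 8.58, 9.91 and 11.2 in BA, with every library of Ca and TB at 0.752 or less. Its difference from BA, the nearest tissue, was 4.78 ± 0.21 (adjusted p = 7.2e-14). Lhx2 was at 75.1, 79.7 and 75.7 in the FLB, at 5.92 to 8.69 in BA, at 3.65 to 13.0 in Ca and at 0.804 or less in TB (3.28 ± 0.33 against BA). Shox2, a homeodomain factor of the proximal limb skeleton, was at 91.7, 99.1 and 92.2 in the FLB against 12 at most in the tissues (3.2 ± 0.15 against Ca). For these factors, as for Lhx9 and Lmx1b, even the lowest FLB library stood several times above the highest tissue library. Lix1, a marker of early limb mesenchyme, was at 322, 317 and 294 in the FLB and at 81.6 to 98.3 in BA (1.76 ± 0.29).

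**Figure D2:**
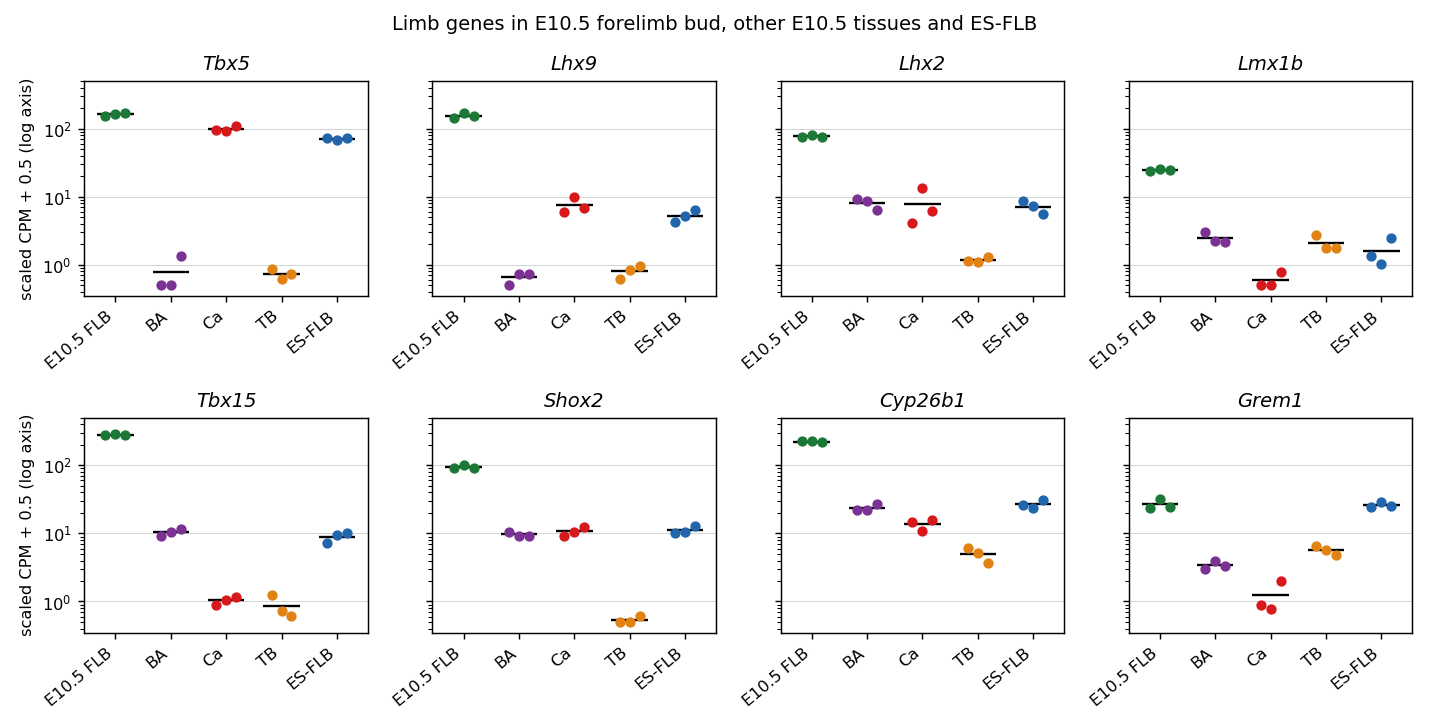
Level in each library (points; log axis, scaled CPM + 0.5) of Tbx5, Lhx9, Lhx2, Lmx1b, Tbx15, Shox2, Cyp26b1 and Grem1 in BA, Ca, TB, the E10.5 FLB and ES-FLB, with a black line at each group mean (n = 3). Tbx5 in Ca (92.2 to 110) lies close under the FLB (154 to 171), and among the other 7 genes Grem1 has ES-FLB (23.7 to 28.7) at the level of the FLB (23.1 to 31.0).

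Of 32 mesenchyme factors listed, 28 were higher than the pooled tissues and 3 lower, and 13 were limb-high, among them Gli3, Irx3, Lhx2, Lhx9, Lix1, Lmx1b, Pkdcc, Prrx2, Shox2, Sox9, Tbx15 and Tbx18. The median difference of the list was 0.45 against BA, 1.71 against Ca and 1.79 against TB, beside medians of -0.00, 0.03 and -0.01 over all genes tested. Over all genes tested 26.9% were higher than the pooled tissues, 29% lower and 3.05% limb-high, shares to set beside this list and those below. Several textbook limb factors did not pass against BA. Prrx1, a homeobox gene used as a marker of limb mesenchyme, had 680 ± 9.38 in the FLB and 566 ± 65.1 in BA (SD, n = 3), a difference of 0.27 ± 0.26 with an adjusted p of 0.56. Hand2, a basic helix-loop-helix factor of the posterior limb and the gene behind the GFP sort of ES-FLB, had 150 in the FLB, 159 in BA and 149 in Ca against 2.04 in TB. Msx1 was higher in BA than in the FLB (159 against 104), and Sall1, a zinc-finger factor, was higher in TB (268 against 112). Tbx18 was at 129, 124 and 138 in the FLB and at 92.3, 84.5 and 89.5 in Ca (0.55 ± 0.22, adjusted p = 0.037). It missed the rule in 10 of the fits that left out 1 library, namely those without any 1 library of the FLB, Ca or TB or without BA replicate 1 (0.51 to 0.59).

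The ridge and limb ectoderm gave 3 limb-high genes of 20 listed, Fgf8, En1 and Krt5, with 10 of the 20 higher and 3 lower than the pooled tissues. Fgf8, the main ridge signal, was at 17.1, 23.9 and 21.4 in the FLB, at 8.52 to 12.6 in BA, at 9.46 to 11 in TB and lower still in Ca (0.95 ± 0.20 against TB). Krt5, a keratin of the basal epidermis, was at 85.0, 73.4 and 90.8 in the FLB against 27.7 to 31.3 in TB (1.47 ± 0.33). En1, the homeobox gene of ventral limb ectoderm, was scarce at 6.62 in the FLB and 2.93 in TB (1.09 ± 0.31) and missed the rule without TB replicate 3 (0.84). Sp8, a zinc-finger factor of the ridge, failed against TB, where it had 24.1 ± 2.54 against 11.3 ± 0.945 in the FLB, and Wnt7a, the dorsal ectoderm signal, had 12.3 in TB against 7.73 in the FLB. Sp8 and Wnt7a thus stood above their FLB levels in TB but not in BA and Ca, where Sp8 was at 0.504 and 0 and Wnt7a at 0.852 and 0.634. The 13 surface ectoderm markers summed to 393 to 411 in the FLB, 440 to 462 in BA, 354 to 382 in TB and 167 to 227 in Ca. Of these, 6 were higher than the pooled tissues, and the 2 lower ones, Krt8 and Krt18, met the limb-low rule.

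In the FGF exchange, 8 of 16 listed genes of the mesenchymal signal and its response were limb-high (Dusp6, Etv5, Fgf10, Fgfr1, Il17rd, Spred1, Spry1 and Spry4). Spred1 missed the rule without FLB replicate 2, TB replicate 1 or TB replicate 3 (0.16 to 0.17). Of the 16, 12 were higher than the pooled tissues and 1 was lower, with medians of 0.61 against BA, 1.19 against Ca and 0.45 against TB. Fgf10, the mesenchymal ligand, was at 31.7, 33.3 and 31.7 in the FLB and at 14.9 to 17.3 in BA. Among feedback inhibitors, Dusp6, a phosphatase of the ERK pathway, was at 231, 226 and 213 in the FLB against 101 to 124 in BA and TB (0.97 ± 0.08 against TB). Spry4, another inhibitor, was at 38.5, 39.8 and 34.0 against 19.9 to 23.7 in TB (0.76 ± 0.13). Etv5, an ETS factor induced by FGF, was at 127, 128 and 124 against 52.5 to 84.1 in the tissues (0.63 ± 0.07 against BA), while its relative Etv4 was not limb-high (54.2 in the FLB, 52.8 in TB). The differences of these response genes were modest but larger than the spread of their libraries.

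Of 14 Hedgehog genes, 12 were higher and 1 lower than the pooled tissues, and Boc, Cdon, Gli3 and Grem1 were limb-high. Grem1, the secreted BMP antagonist that links the posterior mesenchyme with the ridge, was at 23.1, 31.0 and 24.2 in the FLB against 4.25 to 6.14 in TB and at most 3.38 in BA and Ca (2.22 ± 0.27 against TB). Boc and Cdon, co-receptors of Hedgehog, were at 84.9 ± 5.04 and 188 ± 9.57 in the FLB against 56.3 ± 1.96 and 108 ± 2.93 in TB. Of 18 BMP genes 8 were higher and 4 lower, beside 26.9% and 29% of all genes, and Bmp4, Gdf5, Grem1 and Id1 were limb-high. The ligand Bmp4 was at 62.3, 71.7 and 73.2 against 48.5 to 59.8 in Ca (0.32 ± 0.09). Gdf5 was scarce and missed the rule in 4 fits without a library (0.85 to 0.92). Of 21 Wnt genes 12 were higher and 1 lower, and only the receptor Ror2 was limb-high (99.6 ± 1.35 in the FLB, 65.7 to 79.2 in the tissue means). Outside that list, the R-spondin Rspo4, which boosts Wnt signalling, was at 35.2, 35.6 and 32.1 in the FLB and at 1.91 or less in the tissues (4.27 ± 0.47 against BA). Wif1, a secreted Wnt inhibitor, was at 33.5, 30.6 and 27.5 against a mean of 3.86 in TB (2.84 ± 0.21).

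In retinoic acid metabolism a degrading and a synthetic enzyme passed in opposite directions. Of 15 listed, 5 were higher and 6 lower than the pooled tissues, beside 26.9% and 29% of all genes tested. Cyp26b1 was limb-high and Aldh1a2 limb-low. Cyp26b1 (chr6:84571414-84593908), the enzyme that degrades retinoic acid in the distal limb, was at 226, 223 and 219 in the FLB, 21.3 to 26.3 in BA, 10.3 to 15 in Ca and 3.22 to 5.51 in TB (3.24 ± 0.16 against BA). Aldh1a2 (chr9:71215789-71296243), which makes retinoic acid, was at 6.50, 7.46 and 6.62 in the FLB against 15.6 to 19.8 in BA, with means of 52.4 in Ca and 83.6 in TB (-1.33 ± 0.16 against BA). In the same libraries Cyp26b1 was thus high and Aldh1a2 low, each without overlap with any tissue library. Of the other degrading enzymes listed, Cyp26a1 was higher in TB (18.9) and BA (8.82) than in the FLB (3.58). Cyp26c1 was lower in the FLB than in the pooled tissues (-0.63), a call lost in 4 fits without a library (-0.63 to -0.49).

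Hox genes of the 5′ ends of the Hoxa and Hoxd clusters were shared with TB. All libraries of BA and Ca were at or near 0 for Hoxa9 to Hoxa13 and Hoxd9 to Hoxd13, so TB decided the rule. Hoxd9 was at 60.9, 74.7 and 72.2 in the FLB against 25.9 to 27.1 in TB (1.37 ± 0.18). Hoxa10 was at 183, 197 and 178 against 83.0 to 98.4 (1.06 ± 0.14). Hoxa11 was at 91.2, 101 and 79.8 against 45.3 to 54.0 (0.84 ± 0.19), and Hoxd13 at 158, 151 and 165 against 92.4 to 101 (0.70 ± 0.18). For these 4 genes no FLB library overlapped TB. Hoxd10 (73.7 against 61.9), Hoxd11 (56.7 against 64.4) and Hoxa13 (15.3 against 12.8) did not pass against TB, and Hoxd12 differed by 0.06 ± 0.15 with an adjusted p of 0.77. The Hoxd genes summed with Evx2 were at 501 to 507 in the FLB and 480 to 507 in TB, and the summed Hoxa genes at 412 to 440 and 275 to 302. The other clusters went the other way in sum, with Hoxb at 63.6 to 76.5 in the FLB and 347 to 364 in TB and Hoxc at 76.8 to 89.4 and 325 to 333. Hoxc5 and Hoxc6, genes of the anterior trunk and forelimb level, were limb-high all the same (1.60 ± 0.47 and 0.63 ± 0.22 against TB). In GENCODE Hoxc5 overlaps Hoxc6 on the same strand, while their RefSeq positions lie apart. How reads were shared between them was not tested. Hoxa9 was limb-high as well. Hoxa9, Hoxc5 and Hoxc6 missed the rule in 4, 3 and 3 of the fits without a library (0.50 to 0.58, 1.44 to 1.58 and 0.54 to 0.64).

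**Figure D3:**
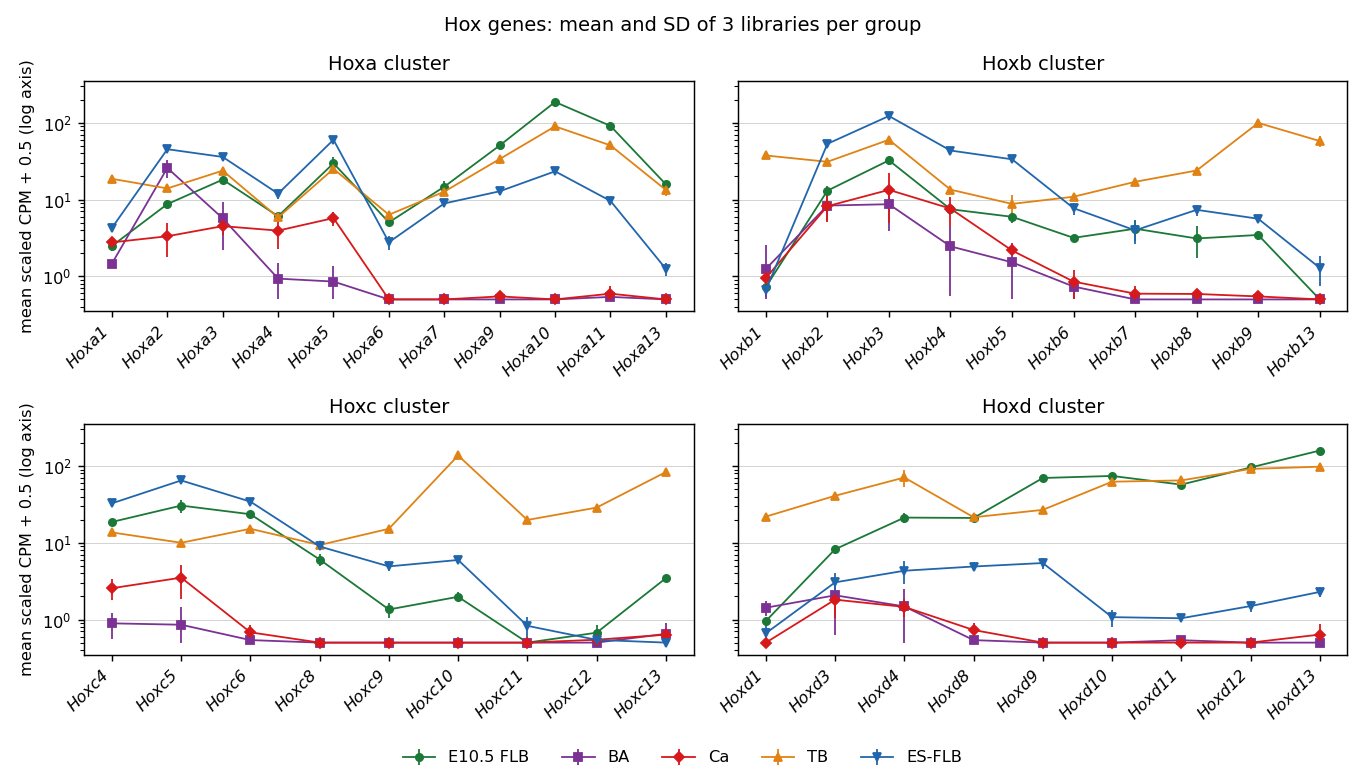
Mean level (scaled CPM, log axis of the mean + 0.5, points with SD, n = 3) of the Hox genes of each cluster in BA, Ca, TB, the E10.5 FLB and ES-FLB. The Hoxd genes, summed with Evx2, reach similar sums in the FLB (501 to 507) and TB (480 to 507) and stay low in ES-FLB (18.2 to 22.4), whereas the Hoxb genes are high in TB (347 to 364) and ES-FLB (274 to 275) and low in the FLB.

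Precursors of tendon and cartilage were also among the limb-high genes, with Scx, Mkx, Sox9 and Sox5 of 17 tested. Of the 17, 8 were higher and 3 lower than the pooled tissues, beside 26.9% and 29% of all genes. Scx, the bHLH factor of tendon progenitors, was at 42.6, 39.6 and 46.7 in the FLB against 13.5 to 17.9 in BA (1.41 ± 0.31). It overlaps Bop1 on the opposite strand, and the strand setting of the counting is not given in the sources used here. Sox9, the cartilage master factor, was at 126, 121 and 144 against 58.1 to 75.9 in BA (0.94 ± 0.14). Mkx, a homeobox gene of tendon, was at 15.4, 11.4 and 12.4 against a mean of 4.13 in BA (1.54 ± 0.19). Sox5 passed by 0.31 and missed the rule in 8 fits without a library (0.16 to 0.33). Of 9 muscle precursor markers 7 were higher than the pooled tissues, and the 9 summed to 149 to 154 in the FLB, 100 to 123 in BA, 12.3 to 19.7 in Ca and 242 to 267 in TB. Among them Lbx1, the homeobox gene of migrating limb muscle precursors, was limb-high at 7.70, 5.47 and 6.10 against at most 1.07 (2.31 ± 0.33). Myod1, which commits cells to muscle, was at 7.36, 7.46 and 12 against 2.92 to 6.04 in BA (1.09 ± 0.37, adjusted p = 0.048) and missed the rule in 7 fits without a library (0.87 to 1.2).

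Several abundant limb-high genes were not on any of these lists. Asb4, an ankyrin-repeat protein of a ubiquitin ligase (chr6:5383386-5433022), was at 667, 671 and 636 in the FLB against 130 to 151 in BA (2.2 ± 0.15). Pmaip1, a BH3-only inducer of apoptosis, was at 122, 98.7 and 107 against 17.5 to 23.8 in TB (2.33 ± 0.16). Dcx, a microtubule-binding protein best known from migrating neurons, was at 86.4, 91.1 and 95.2 against 12.9 to 32.3 in BA (2.07 ± 0.43). Of 12 neural markers tested none was higher than the pooled tissues and 8 were lower. The secreted proteins Fibin (60.2, 50.7 and 64.8, against 6.53 to 8.46 in BA) and Scube1 (316 against 93.4 in BA, means) were high as well. Prdm16 (141 against 60.6 in BA) overlaps the noncoding 5930403L14Rik (275 against 79.1), so reads of these 2 genes may not be told apart. Tbx4, the T-box factor of the hindlimb, met the rule at 12.3, 11.9 and 11.9 (1.69 ± 0.49 against BA) and lost it in 8 fits without a library (1.58 to 1.77). The HLB had 169.

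**Figure D4:**
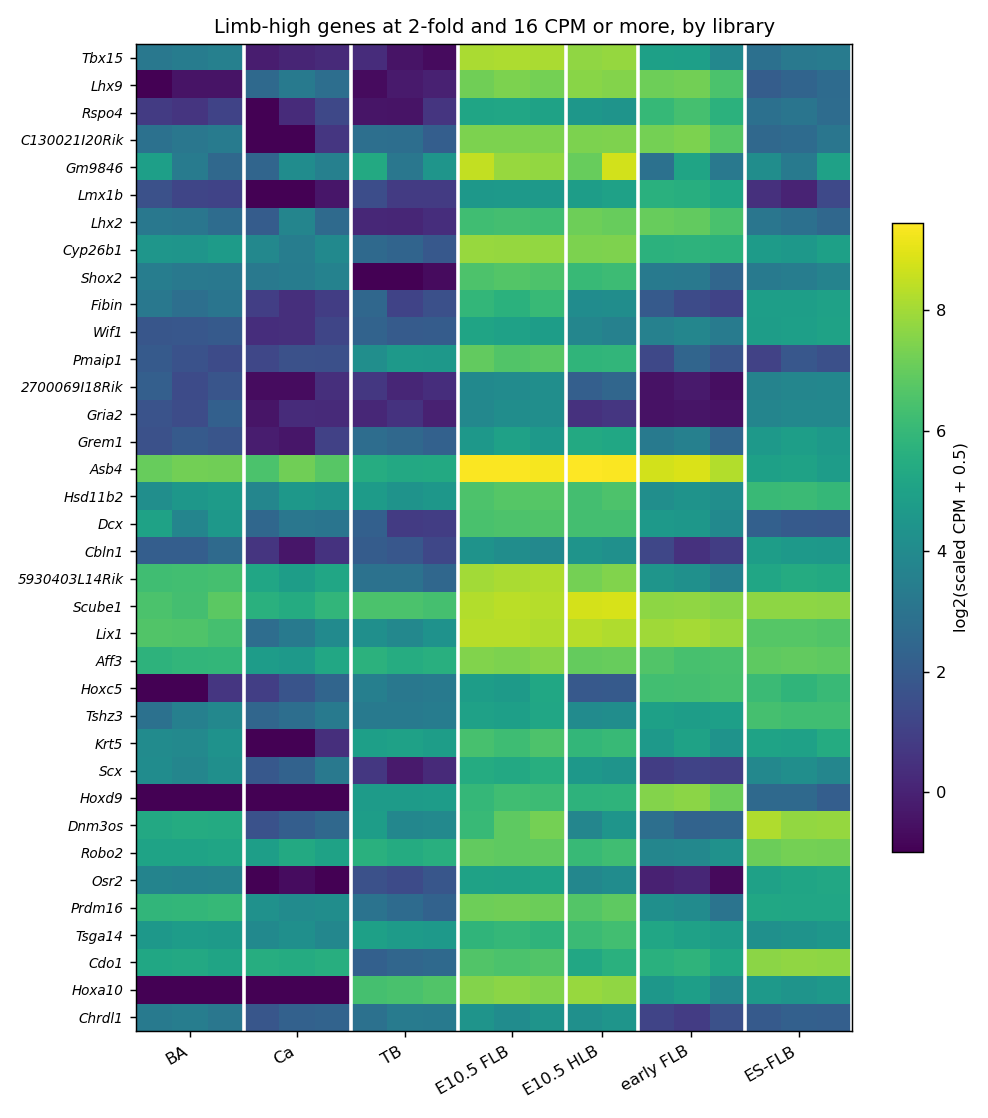
Level (colour, log2 of scaled CPM + 0.5) of 36 of the 37 limb-high genes with a 2-fold difference and at least 16 CPM in the E10.5 FLB, in each library of BA, Ca, TB, the E10.5 FLB, the E10.5 HLB, the early FLB and ES-FLB. The FLB columns are brighter than the 9 tissue columns by the rule that chose the genes; ES-FLB itself passed the rule for 16 of them.

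The letters upstream of the 90 genes were searched for 2 motifs on both strands. TAATTA, the core bound by many homeodomain proteins, was in the 250 bases before a start of 6 of the 70 genes that the promoter table holds among them (8.57%; Asb4, Asb9, Dcx, Epha5, Lmo1 and Mgat4c). It was in 3.2% of the 10907 genes tested that have a window and in 6.12% of all 27025 genes of the table, counting a gene with several starts once. AGGTGT, a T-box core, was also in 6 of the 70 genes (8.57%; Gja3, Hoxa10, Hoxd9, Krt5, Prdm16 and Rxfp2), against 13.1% of genes tested and 15.7% of all. Asb4 and Dcx, the most abundant members with TAATTA, are shown with it in capitals, as chr6:5383136-5383385 on the plus strand and chrX:143933220-143933469 on the minus strand (GRCm38.p6). A match is a description of the letters and not a site.
Asb4: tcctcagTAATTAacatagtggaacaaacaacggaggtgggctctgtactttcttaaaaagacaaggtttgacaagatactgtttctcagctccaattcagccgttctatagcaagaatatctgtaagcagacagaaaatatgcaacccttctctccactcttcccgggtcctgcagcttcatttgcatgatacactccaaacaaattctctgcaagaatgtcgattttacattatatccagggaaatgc
Dcx: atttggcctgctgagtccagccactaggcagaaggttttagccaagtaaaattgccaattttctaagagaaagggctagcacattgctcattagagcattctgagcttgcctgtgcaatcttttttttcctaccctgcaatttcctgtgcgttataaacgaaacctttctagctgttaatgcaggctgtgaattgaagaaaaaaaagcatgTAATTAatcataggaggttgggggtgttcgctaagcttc
The motif ended 237 bases before the start of Asb4 and 33 bases before the start shown for Dcx, which has another start 128 bases from the motif.

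A pair of genes passed the rule in opposite directions with a sum that hardly moved, and both are uncertain. Gm9846 (Rps27rt in RefSeq, chr9:114982366-114982739, inside Osbpl10 on the opposite strand) was limb-high at 363, 230 and 217 against 4.81 to 40.3 in the tissues (3.73 ± 0.76 against TB). Rps27, the ribosomal protein gene (chr3:90212667-90213648), was limb-low at 74.4, 232 and 219 against 407 to 481 (-1.46 ± 0.37 against TB). Added up in each library, they gave 435.1 to 462.4 in the FLB, 469.3 to 489.7 in BA, 474.3 to 481.2 in Ca and 447.8 to 465.8 in TB. The library of the FLB with the most Gm9846 had the least Rps27, and in the 2 HLB libraries Gm9846 was at 129 and 427 and Rps27 at 335 and 32.7, with sums of 463.8 and 459.7. The counts of such a gene copy can take reads from its parent, so neither gene is read here as specific to the limb bud, although both stay in the counts above. Rps27 also missed the rule without any 1 of the 3 BA libraries.

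Most limb-low genes with the 2-fold demand were scarce in the FLB: 52 of the 98 were at 1 CPM or less in the FLB, and 12 reached 16 CPM in each of the 3 tissues. Foxc2 (chr8:121116171-121118895), a forkhead factor of vessels and somites, was at 4.96, 3.98 and 5.40 in the FLB, 26.1 to 38.4 in BA, 34.2 to 38.7 in Ca and 75.1 to 85.1 in TB (-2.54 ± 0.13 against BA). Des, the intermediate filament of muscle, was at 2.40, 2.82 and 3.66 against 16.1 to 20.5 in BA, 13.7 to 23.5 in TB and 678 to 869 in Ca (-2.41 ± 0.20 against TB). Spon1, a matrix protein, was at 4.11, 5.47 and 5.40 against 13.6 to 25.6 in BA (-1.78 ± 0.20), and Cited1, a transcriptional cofactor, at 10.2 against 27.5 in TB (-1.38 ± 0.11). The homeobox genes Irx1 (1.53 against 11.9 in BA) and Isl1 (2.73 against 9.21 in Ca) were limb-low too. So were the forkhead genes Foxf1a and Foxf2, at 0.166 and 0.458 in the FLB, at or under 3 reads, against 18.4 and 30.3 in BA. Sulf1, an enzyme that trims heparan sulphate, was at 36.3, 34.3 and 42.5 against 76.8 to 114 in Ca (-1.25 ± 0.15), and Plagl1, an imprinted zinc-finger gene, at 118, 106 and 131 against 254 to 287 in TB (-1.21 ± 0.12). At the edge of the 2-fold demand, Prokr2 and Dok5 were just inside with a weakest difference of -1.0 each and Actn3 just outside with -0.98.

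Markers of other cell types differed between the pieces. The 12 erythroid markers listed summed to 2893 to 4161 in the FLB, 2975 to 3652 in BA, 6020 to 6962 in TB and 24906 to 36097 in Ca. Of the 11 tested none was higher in the FLB than in the pooled tissues, and 10 were lower. The 12 endothelial markers summed to 398 to 407 in the FLB, 345 to 408 in BA, 463 to 508 in TB and 1068 to 1136 in Ca (none higher, 9 lower). Heart markers were at 17.1 to 25.5 in the FLB and 28495 to 34282 in Ca (0 of 16 higher and 14 lower, Actc1 and Myl3 limb-low). Actc1 missed the rule in 3 fits without a library (-1.36 to -1.04) and Myl3 in 5 (-0.78 to -0.39). Tail bud markers were at 27.3 to 27.9 against 659 to 740 in TB (0 of 17 higher, 13 lower), and BA markers at 107 to 120 against 811 to 867 in BA (2 of 14 higher, 8 lower). The 14 neural markers listed summed to 145 to 152 in the FLB and 478 to 533 in TB, with Sox2 and Nes limb-low. Of 7 macrophage markers tested none was higher and 1 lower, and the 8 listed summed to 21.5 to 25.0 in the FLB. These markers moved with the tissues; their part in the limb-high and limb-low calls was not tested.

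A limb-high gene was called kept in ES-FLB when ES-FLB itself passed the same rule against the tissues, and by this definition the smaller share was. With kept defined as within 2-fold of the FLB, the larger share of the limb-high genes was kept. All these comparisons use the same 9 tissue libraries, and the ES-FLB difference uses the FLB libraries that chose the members. ES-FLB met the limb-high rule for 180 of the 424 genes (42.5%), 31 of the 90 (34.4%) and 16 of the 37 at 16 CPM or more, beside 2546 of all 14177 genes tested (18%). It met the opposite rule for 18 of the 424 and 3 of the 90. Of the 90, 66 were lower in ES-FLB than in the FLB, 59 of these by at least 2-fold, 9 were higher, and 15 had an adjusted p of 0.05 or more, with a median of -1.65. Over all genes 4690 (33.1%) were higher in ES-FLB than in the FLB and 4910 (34.6%) lower. For limb-low genes ES-FLB met the rule for 164 of the 484 (33.9%) and 24 of the 98 (24.5%), beside 2606 of all genes (18.4%), and the opposite rule for 62 and 11. Of the limb-low genes at 2-fold, 81 of the 98 were higher in ES-FLB than in the FLB and 2 lower.

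**Figure D5:**
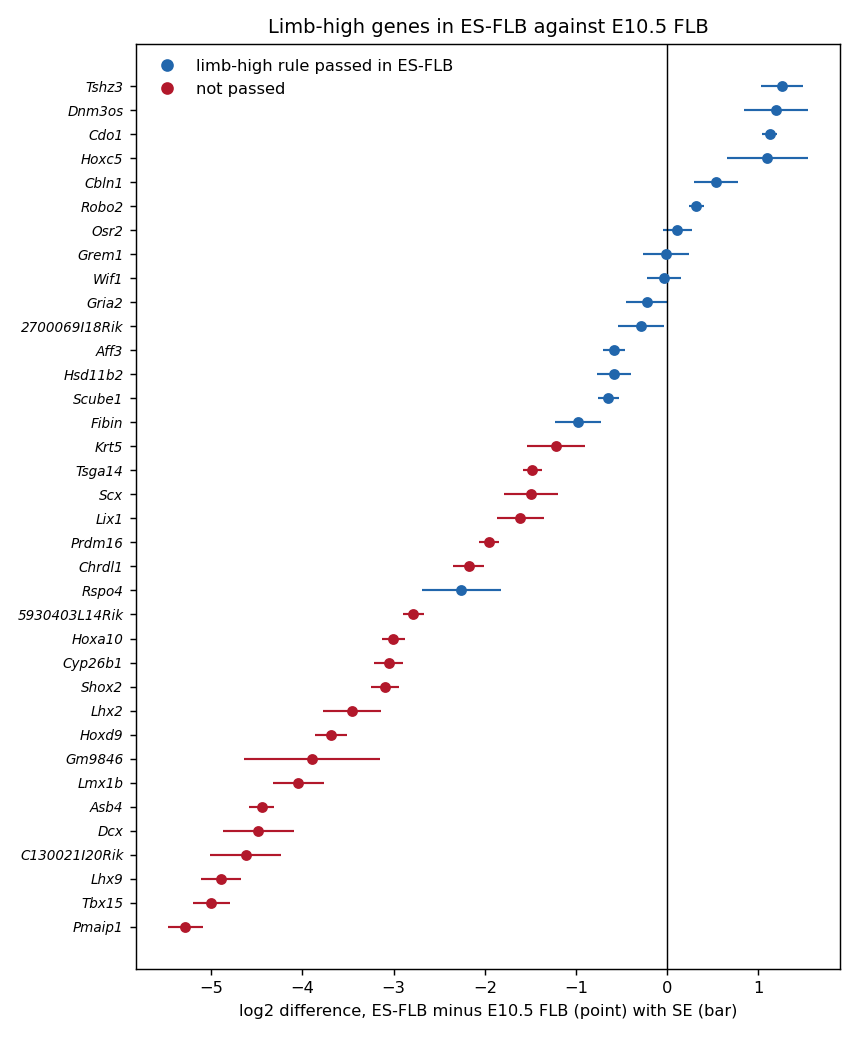
Difference between ES-FLB and the E10.5 FLB (horizontal axis, log2 scale, point with SE, n = 3 against 3) for 36 of the 37 limb-high genes with a 2-fold difference and at least 16 CPM in the FLB; blue marks the 16 genes for which ES-FLB itself passed the limb-high rule. Of the 37, 26 were lower and 5 higher in ES-FLB, from Pmaip1 (-5.28) at the low end to Tshz3 (1.26) at the high end.

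Lhx9, Lmx1b and other limb-high transcription factors were not kept. Tbx15 had 6.81, 8.96 and 9.63 in ES-FLB, the level of BA (-5.0 ± 0.20 against the FLB). Lhx9 had 3.77, 4.68 and 5.85 (-4.89 ± 0.22), Lmx1b 0.851, 0.519 and 1.95 (-4.04 ± 0.28), Lhx2 8.03, 6.75 and 5.12 (-3.46 ± 0.32), Shox2 9.49, 10.1 and 12.4 (-3.09 ± 0.15) and the noncoding C130021I20Rik 5.35, 5.71 and 8.16 (-4.62 ± 0.39). Tbx5, which was not limb-high, was at 72.0, 67.0 and 73.0, lower than in the FLB by 1.2 ± 0.30 (limma adjusted p = 0.0042). It stood above every library of BA and TB but below every library of Ca (92.2 to 110). The difference from Ca was not called (-0.47 ± 0.30, limma adjusted p = 0.17), so Tbx5 did not meet the limb-high rule in ES-FLB either. Of the 13 limb-high mesenchyme factors Irx3 (59.6 in the FLB, 69.8 in ES-FLB) and Pkdcc (294 and 391) were kept, and over all 32 factors 8 were higher and 18 lower in ES-FLB. Hand2, the gene of the sort, was at 156 in ES-FLB and 150 in the FLB, and Prrx1 was at 460 and 680. The homeobox genes Meis1 and Meis2, known from the proximal limb, were higher in ES-FLB (253 against 72.2 and 333 against 145).

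None of the limb-high Hoxa and Hoxd genes was kept in ES-FLB. Hoxd13 had 1.46, 2.08 and 1.83 (-6.13 ± 0.19 against the FLB), Hoxd12 0.996 (-6.01 on the log2 scale) and Hoxd9 5.47, 5.45 and 3.90 (-3.69 ± 0.18). Hoxa10 had 24.7, 20.5 and 23.3 (-3.00 ± 0.13) and Hoxa9 13.3, 12.6 and 11.1 (-1.98 on that scale). Of 9 Hoxd genes 8 were lower and none higher, and of 10 Hoxb genes 8 were higher and none lower, with Hoxb4 at 43.0 against 6.98. Hoxc5 and Hoxc6 were kept, at 69.5, 56.2 and 67.3 for Hoxc5 (1.10 ± 0.45 above the FLB, adjusted p = 0.048) and 32.2, 33.1 and 36.2 for Hoxc6. The difference of Hoxc5 from the FLB passed no longer in 10 fits without a library (0.98 to 1.25), and that of Hoxc6 without ES-FLB replicate 3 (0.50).

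Of the limb-high signalling genes some were kept and others not. Grem1 had 23.7, 28.7 and 24.7 (-0.01 ± 0.25), Fgf10 28.0, 31.2 and 25.2 (-0.20 ± 0.12), Bmp4 189 against 69.1 in the FLB, and Boc, Cdon and Ror2 119, 146 and 166; these 6 were kept. Fgf8 was at 0, 0 and 0.244 in ES-FLB, where 3 reads came to 0.388 to 0.416 CPM, and it was not detectable above that limit. Of the FGF response genes 12 of 16 were lower than in the FLB and 3 higher. Etv5 was at 31.1, 35.5 and 33.9 (-1.90 ± 0.07), Dusp6 at 120, 119 and 117 (-0.91 ± 0.07) and Spry4 at 19.0 ± 0.692 (-0.96 ± 0.12). Of the 20 ridge and ectoderm genes 14 were lower and 3 higher than in the FLB; of the 3 limb-high ones En1 was kept (5.37 against 6.62) and Fgf8 and Krt5 were not. The surface ectoderm markers summed to 154 to 211 in these GFP-sorted cells against 393 to 411 in the FLB. Of the limb-high muscle precursor markers Lbx1 was kept and Myod1 was not. Of the 9 muscle markers listed 1 was higher and 7 lower in ES-FLB than in the FLB. Macrophage markers summed to 0.122 to 0.649, erythroid markers to 9.75 to 11 and endothelial markers to 50.7 to 55.1 in ES-FLB; the part of such cells in the genes that were lower was not tested.

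Cyp26b1 was not kept in ES-FLB, and Aldh1a2 stood the other way there. Cyp26b1 was at 25.8, 23.5 and 30.2 (-3.05 ± 0.16 against the FLB). In ES-FLB it was not called different from BA (0.19 ± 0.16, limma adjusted p = 0.31) and was higher than in Ca (1.00) and TB (2.46). Aldh1a2 was at 176, 167 and 164 (4.53 ± 0.15), so the gene that was limb-low in the embryo met the limb-high rule in ES-FLB. Aldh1a3, another synthetic enzyme, was at 17.5 against 0.400, and Rdh10, which makes its retinal substrate, at 78.5 against 15.6, while Crabp2, a binding protein of retinoic acid, was at 79.1 against 422. Retinoic acid was part of the culture protocol of ES-FLB; its part in these levels was not tested. Other limb-low genes above the FLB included Sulf1 (248, 232 and 237; 2.65 ± 0.14), Zeb2 (110 against 13.2), Isl1 (23.4 against 2.73) and Irx1 (23.1 against 1.53). Foxc2 (12.8, 12.7 and 15.1) and Parm1 (7.27 against 6.04) were still below all 3 tissues by the rule.

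Some limb-high genes stood at or above their FLB level in ES-FLB. Agtr2, an angiotensin receptor found in fetal mesenchyme, was at 71.3, 70.1 and 77.4 against 17.3, 12.8 and 14.5 in the FLB (2.27 ± 0.21). Cdo1, an enzyme of cysteine breakdown, was at 201, 211 and 206 against 96.3, 88.6 and 97.8 (1.13 ± 0.08). Tshz3, a zinc-finger factor, was at 81.7, 74.8 and 75.4 against 31.1, 29.7 and 35.7 (1.26 ± 0.23). Osr2, of the odd-skipped factors of joint and limb mesenchyme, was at 34.6 ± 3.36 against 31.9 ± 0.986 (0.11 ± 0.16, adjusted p = 0.54). Wif1 (29.7) was kept as well. Rspo4 (6.69, 7.79 and 5.97; -2.26 ± 0.43) and Fibin (28.5, 28.8 and 30.7; -0.98 ± 0.26) were kept at a lower level than in the FLB. Dnm3os, a noncoding RNA that carries microRNAs, varied from 65.5 to 154 within the FLB and missed the limb-high rule in 8 fits without a library (1.07 to 1.37), among them each one without a BA library. Among the genes that met the opposite rule were Asb4 (30.3, 31.7 and 27.2; -4.45 ± 0.14) and Galnt5 (0.671; -3.35 ± 0.27).

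The other limb buds shared part of these genes. The HLB met the limb-high rule for 219 of the 424 and 58 of the 90 (5.51% of all genes tested did), and the early FLB for 127 and 32 (16.1%). For limb-low genes the HLB met the rule for 292 of the 484 and 78 of the 98 (5.37%), and the early FLB for 205 and 56 (11%). Of the 90, 10 were kept in the HLB, the early FLB and ES-FLB alike, 20 in both limb buds but not ES-FLB, 19 in the HLB only, and 20 in none. Against the FLB, 72 of the 90 were lower and 9 higher in the early FLB (median -1.95), and 35 lower and 5 higher in the HLB (median -0.48). These differences use the FLB libraries that chose the members, which itself favours lower values. No share over all genes stands beside them, so they are not read as a result about the members. The early FLB libraries also held more reads than those of the FLB, and the part of depth in the early FLB differences was not tested. Lhx9, Lhx2 and Lmx1b were already at 127, 113 and 43.5 in the early FLB, while Tbx15 (24.8 ± 9.16), Shox2 (7.77), Hoxa10 (21.9) and Hoxd13 (5.57) stood well below their E10.5 levels of 283, 94, 186 and 158. Scx (1.51), Pmaip1 (3.2) and Osr2 (0.388) were also low in the early FLB, and Gria2, a glutamate receptor subunit at 16.2 in the FLB, was at 0.981 in the HLB and 0.220 in the early FLB against 13.7 in ES-FLB. Lhx9, Lhx2 and Lmx1b, high in all 3 kinds of limb bud, were thus low in ES-FLB, and Gria2 was the reverse, high in the FLB and ES-FLB.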

How the data were processed

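mRNA of each sample was sequenced single-end on a HiSeq1500 (TruSeq Stranded mRNA LT kit). Per the study's methods and the submitters' processing notes, reads were checked with FastQC 0.11.5, aligned to mm10 with HISAT2 2.0.4 and processed with Cufflinks 2.1.1, Cuffdiff and edgeR 3.16.2; the authors deposited 1 table of CPM per gene (counts per 1e6 reads), in which every library sums to 1e6 over 23279 listed genes. The strand setting of the counting is not given in the sources used here. Among the gene names, 25 have been turned into dates and were not named.

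From these values, libraries were scaled by trimmed mean of M values (unweighted, trims of 30% and 5%) over 26 libraries, leaving out the HLB library with 13642 genes listed at 0. log2(scaled CPM + 0.5) of genes with at least 1 CPM in 3 libraries was fitted with limma 3.58.1 (trend and robust settings, R 4.3.3) with 1 mean per group and no covariate, with the adjustment of Benjamini and Hochberg taken across every gene tested. The embryonic tissues took 12 libraries (13882 genes), 15 with ES-FLB (14177 genes) and 17 with the early FLB and HLB (13999 genes). The pseudocount understates the change of scarce genes. In the 15 libraries of the first 2 fits, 98.9 to 99.5% of the low values were whole multiples of 1 read within 0.1 read, which gave the library sizes; the planned count test with edgeR was not run, because the recovered reads were not accepted as counts.

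The members, gene lists and named genes were chosen with earlier results of these data known. Named genes were the markers, the genes of the lists, in each direction the 10 genes of the 2-fold form with the largest weakest difference at 16 CPM or more on the higher side and libraries that did not overlap, and, among such limb-high genes at 16 CPM or more, the 5 highest and 5 lowest in ES-FLB minus the FLB; the other genes named (such as Agtr2, Osr2, Gria2, Galnt5, Isl1, Irx1, Zeb2 and Rps27) were chosen after their values were seen. Some genes that met these rules are not reported here; they stay in the counts. Promoters are from the RefSeq table of GRCm38.p6, and overlaps from GENCODE. Scripts were tested on simulated data (Python 3.11.15, numpy 2.4.6, pandas 2.3.3).

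The replicate numbers of the groups were checked for pairing by the correlation of same-numbered libraries' deviations from their group means, which was -0.0752 to 0.141 over 18 pairs (median 0.051); the numbers were not taken to pair the samples.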

Additional observations from a re-analysis of the deposited data

Results flagged for a closer look

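In each of these results 2 sources of tissue moved in opposite directions against the same 9 tissue libraries: the E10.5 FLB passed the rule one way against all 3 tissues, the other source passed it the opposite way, and the difference between the sources had an adjusted p below 0.05 (limma, Benjamini-Hochberg). Differences are on the log2(scaled CPM + 0.5) scale. ES-FLB stood above the tissues where the FLB stood below them for Aldh1a2, the retinoic acid synthase (4.53 for ES-FLB minus the FLB), Sulf1, the heparan sulphatase (2.65), Zeb2, a zinc-finger repressor (3.02), Vldlr, a lipoprotein receptor (3.47), Uchl1, a deubiquitinating enzyme (2.28), Meis3, a homeobox gene (2.02), and Slco5a1 (2.83). The same held for Foxl1 (4.66), Rxfp1 (4.85), Atcay (3.11) and Rerg (4.2), whose levels in the FLB were near the limit of 3 reads, so that the fitted size depends on the pseudocount. ES-FLB stood below the tissues where the FLB stood above them for Asb4 (-4.45) and Galnt5 (-3.35). The early FLB stood below the tissues where the E10.5 FLB stood above them for Robo2, a guidance receptor (-2.91 for the early FLB minus the E10.5 FLB; 15.5 in the early FLB, 118 in the FLB), and Chrdl1, a BMP antagonist (-3.11; 1.84 and 19.3). Strain, culture and sorting differ together between ES-FLB and the embryonic tissues and cannot be told apart.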

How the results depend on the processing

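The 16 count results were recomputed under 33 settings. Of the 382 recomputed counts, 352 stayed within 1.5 times the reported one and 30 did not. Of 16377 values of single genes 15682 kept direction and side of the threshold, 691 lost the threshold and 4 changed sign. With 0.1 as pseudocount Fgf17 (0.035), Hoxc10 (0.49) and T (0.16) changed sign against the pooled tissues, and with 2 Hoxb8 did (-0.088); these genes are scarce in the FLB. At an adjusted p below 0.001, 1996 genes were higher and 2397 lower than the pooled tissues, 157 limb-high and 152 limb-low, with 57 limb-low at 2-fold; 58 limb-high and 41 limb-low genes were kept in ES-FLB, 9 of the limb-low at 2-fold, 35 limb-low in the early FLB and 39 in the HLB, and 5 limb-high genes at 2-fold were higher in ES-FLB. With the 9 tissue libraries as 1 group, whose spread then includes the tissue differences, 135 genes were higher and 103 lower, 134 and 103 met the rule, and 49 were limb-low at 2-fold. A minimum of 5 CPM left 59 limb-high genes at 2-fold, 42 of them lower in ES-FLB. A pseudocount of 0.1 gave 179 limb-low genes at 2-fold (86 kept in the early FLB, 119 in the HLB), and one of 2 gave 33 (9 kept in ES-FLB, 23 in the early FLB, 31 in the HLB) and 43 limb-high genes lower in ES-FLB. With kept defined as within 2-fold of the FLB, 309 of the 424 limb-high and 268 of the 484 limb-low genes were kept, the larger share of each. CPM as deposited moved the median difference from Ca to 0.144 from 0.03 and the share of calls that were higher to 52.9% from 48.1%, and median ratios moved it to 44.2%.

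Leaving out 1 library at a time gave 3156 to 3825 genes higher and 3591 to 3989 lower than the pooled tissues, 314 to 477 limb-high and 390 to 476 limb-low genes, 68 to 92 and 87 to 102 at 2-fold, and 136 to 205 and 128 to 163 kept in ES-FLB (23 to 33 and 17 to 27 at 2-fold). Of the limb-high genes at 2-fold, 49 to 68 were lower and 4 to 11 higher in ES-FLB, 4 without FLB replicate 2 and 5 without FLB replicate 3; 25 to 35 were kept in the early FLB and 44 to 58 in the HLB, and 48 to 63 and 64 to 84 of the limb-low genes. With the replicate number as a replicate block there were 3753 and 4045 genes higher and lower, 427 limb-high and 488 limb-low genes (88 and 96 at 2-fold), 185 and 163 kept in ES-FLB (30 and 23 at 2-fold), 65 lower and 9 higher in ES-FLB, 32 and 57 kept in the early FLB and 57 and 79 in the HLB; Dnm3os and Tbx4 lost the limb-high call. In 9 of 12 libraries the mean correlation of deviations was highest with the libraries of the same number, a hint from the data and not from the design. The count test with edgeR was not run. The FLB libraries, with fewer reads than BA, Ca and TB, set the limit for scarce genes.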

Other observations

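Of 17 genes tested on the list of cartilage and tendon precursors, 9 were higher and 7 lower in ES-FLB than in the FLB. Over all genes tested 33.1% were higher and 34.6% lower. None of the 4 limb-high genes of the list (Scx, Mkx, Sox9 and Sox5) was kept in ES-FLB. The examples below were chosen after their values were seen and were neither limb-high nor limb-low. Col3a1, a fibrillar collagen, had 3888 ± 145 in ES-FLB and 603 ± 28.4 in the FLB (SD, n = 3; 2.69 ± 0.10 on the log2 scale, SE), Tnc, a matrix glycoprotein, 392, 387 and 407 in ES-FLB and 17.8, 12.1 and 28.6 in the FLB (4.39 ± 0.40), and Dcn, a small proteoglycan, 62.1 ± 1.00 and 2.00 ± 0.741 (4.70 ± 0.21). Egr1, an immediate early gene, was at 706, 460 and 701 in ES-FLB and at 6.84, 2.32 and 2.61 in the FLB. Col2a1, the cartilage collagen, went the other way, with 93.7 ± 6.74 in ES-FLB and 307 ± 28.9 in the FLB (-1.71 ± 0.12). Runx2, the osteoblast factor, was at 61.2, 65.1 and 65.8 in ES-FLB against 16.6, 17.1 and 22.8 in the FLB (1.75 ± 0.69, adjusted p = 0.044 from limma), a call lost in 12 fits that left out 1 library, namely any 1 of the FLB, ES-FLB, BA or TB (1.67 to 1.90).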
